A study of Caenorhabditis elegans with 12 samples.

Results

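The 9 genes described here make up the core of the unfolded protein response (UPR) of the endoplasmic reticulum (ER) in C. elegans. They are the sensor genes ire-1, pek-1 and atf-6, the transcription factor gene xbp-1, the BiP chaperone genes hsp-3 and hsp-4, the disulphide isomerase gene pdi-2, the calreticulin gene crt-1 and the calnexin gene cnx-1. They were picked by gene name from the pathway, and all 9 were present among the 12595 genes of the expression table. Whole adult worms at day 1 of adulthood, raised at 25°C, were sequenced in 4 groups of 3 biological replicates, 12 libraries in all. The groups were glp-1(ts) animals fed skn-1 RNAi bacteria, glp-1(ts) animals fed bacteria with the empty L4440 vector, WT animals fed skn-1 RNAi bacteria and WT animals fed the vector. The glp-1(ts) strain carries glp-1(bn18ts), a temperature-sensitive allele of the gene for a Notch receptor that keeps germline stem cells dividing, and WT is the N2 strain. SKN-1 is the worm relative of mammalian Nrf transcription factors. RNAi feeding began at the egg stage according to the sample labels and at the L1 larval stage according to the study's methods. Each sample pooled about 5000 animals, WT animals kept their germline and eggs, and glp-1(ts) animals form few germ cells at this temperature. A lower value in such bulk samples can come from fewer cells of a type or from less RNA per cell. A higher value can come from a larger share of a cell type or from more RNA per cell. These cannot be told apart.

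The UPR adjusts the folding capacity of the ER to the load of proteins that enter it. IRE-1 is a kinase and endoribonuclease of the ER membrane that splices xbp-1 mRNA, so that a longer and more active XBP-1 protein is made. PEK-1, the worm PERK, phosphorylates the translation initiation factor eIF2alpha and slows protein synthesis, and ATF-6 is a membrane-bound transcription factor. The BiP proteins HSP-3 and HSP-4 are HSP70 chaperones of the ER lumen, of which hsp-4 is the commonly used transcriptional reporter of the response in worms, and calreticulin and calnexin are lectins that hold glycoproteins until they fold. SKN-1 is known in worms to take part in ER stress responses and to be connected with the UPR sensors. Values per gene do not separate spliced from unspliced xbp-1 and do not show the activity of the sensors.

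Values are log2 CPM (read counts scaled to library size, on the log2 scale) after quantile normalization by the study's authors, and library depths are unknown. A gene was called where limma's adjusted p over all genes was under 0.05, and fold changes are glp-1(ts) over WT or skn-1 RNAi over vector. On vector all 20 of 20 germline genes were lower in glp-1(ts), at a median log2 fold change of −3.07. All 9 intestine, 6 muscle and 8 neuron genes were higher, at medians of 1.60, 1.60 and 1.61. Of 6 hypodermis genes 4 were higher and 2 lower. The mean of the germline genes was 3.47, 3.71 and 4.64 log2 CPM in glp-1(ts) vector libraries, against 6.77 to 7.07 log2 CPM in WT vector libraries, so that glp-1(ts) vector replicate 3 had the highest germline level of its group. The part of tissue composition in the values below was not tested. The targeted gene skn-1 was at 4.56, 5.03 and 4.37 log2 CPM in WT skn-1 RNAi libraries, against 6.38, 6.50 and 6.10 log2 CPM in WT vector libraries. It was at 5.73, 6.60 and 6.08 log2 CPM in the skn-1 RNAi-labelled glp-1(ts) libraries, against 6.07, 6.17 and 6.23 log2 CPM in glp-1(ts) vector libraries. The skn-1 level therefore fell in WT (log2 fold change −1.67, adjusted p = 0.00782, and 0.0579 without WT vector replicate 1) and did not separate the groups in glp-1(ts) (−0.02, 95% interval −0.47 to 0.44). The difference of these effects was 1.66 ± 0.30 (SE) on the log2 scale, with an unadjusted p of 8.04e-05 and an adjusted p of 0.732 in limma. In glp-1(ts), skn-1 RNAi therefore stands below for the label of the libraries.

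Scaled to exon length, the folding genes were far above the sensors. In WT vector libraries crt-1 averaged 9.18 ± 0.11 log2 CPM per kilobase (SD, n = 3), followed by pdi-2 at 8.20 ± 0.23, hsp-3 at 7.71 ± 0.21 and hsp-4 at 6.93 ± 0.17. The transcription factor gene xbp-1 was next at 6.60 ± 0.14 log2 CPM per kilobase, then cnx-1 at 5.63 ± 0.05. The sensor genes closed the order, with ire-1 at 3.91 ± 0.12, pek-1 at 2.42 ± 0.15 and atf-6 at 1.45 ± 0.03 log2 CPM per kilobase. No neighbours in this order overlapped in range in WT vector libraries, and crt-1 was at or above 99% of all genes on this scale while atf-6 was at or above 34.8%. In glp-1(ts) vector libraries the order differed in the middle and at the end. There xbp-1, at 7.37 ± 0.18 log2 CPM per kilobase, stood above hsp-4 at 6.27 ± 0.74, and pek-1 at 3.57 ± 0.17 could not be separated from ire-1 at 3.55 ± 0.12. The skn-1 RNAi-labelled glp-1(ts) libraries had the order of their vector group. WT skn-1 RNAi libraries had the order of theirs, with overlapping ranges of hsp-4 and xbp-1.

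**Figure D1:**
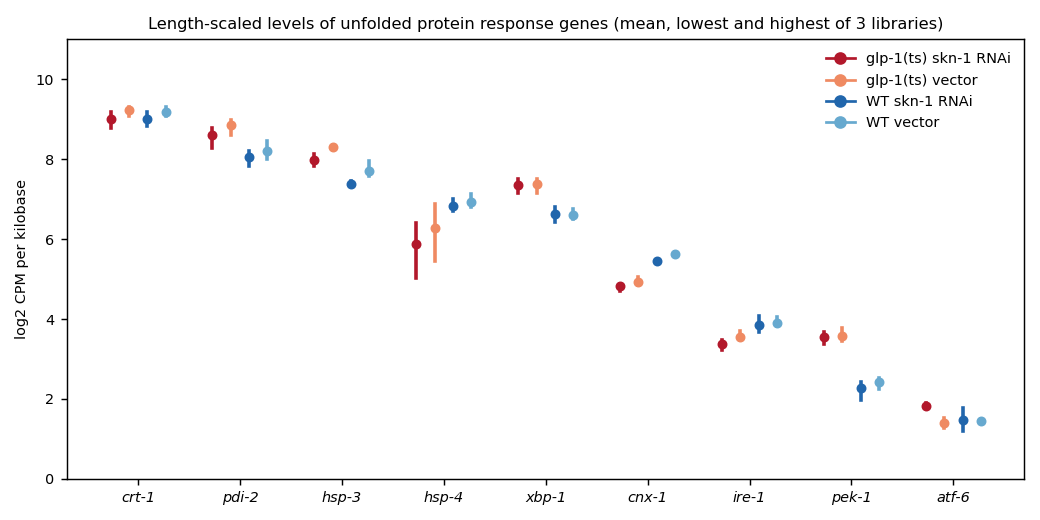
Levels of the 9 UPR genes in log2 CPM per kilobase of exon, ordered by their level in WT vector libraries; points are group means and lines run from the lowest to the highest of 3 libraries, with groups as labelled. crt-1 is the highest gene in every group, and the mean of xbp-1 lies above that of hsp-4 in both glp-1(ts) groups and below it in both WT groups.

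Setting glp-1(ts) against WT asked how expression differs in animals with few germ cells. On vector, xbp-1, pek-1, hsp-3 and pdi-2 were higher in glp-1(ts), by 1.50-fold for hsp-3 to 2.21-fold for pek-1, and ire-1 and cnx-1 were lower, at 0.78-fold and 0.62-fold of WT. Even the largest increase, a log2 fold change of 1.15 for pek-1, was below the medians of intestine, muscle and neuron genes (1.60, 1.60 and 1.61). The part of tissue composition in these increases was not tested. The genes atf-6, hsp-4 and crt-1 did not pass the test. Thus 4 of 9 genes were called higher and 2 of 9 lower, where 39.4% of all genes were called higher and 38% lower, 77.4% in all. The skn-1 RNAi comparison used other libraries, but the spread was estimated over all 12 libraries together. Libraries of equal replicate number also deviated together within a strain, so the comparisons are not independent. On skn-1 RNAi the same 4 genes were higher and ire-1, hsp-4 and cnx-1 were lower. The background there was 41.7% of genes higher and 38.1% lower, 79.8% in all. The share of members called was thus not above that of the table, and the members had no common direction. Their median log2 fold change was 0.05 on vector and 0.35 on skn-1 RNAi, beside 0.27 and 0.32 over all genes. Over the 8704 genes that averaged 4 CPM or more, the median on vector was −0.05. The groups did not overlap for 4 members in the higher direction and 2 in the lower on vector, beside 41.4% and 39.7% of all genes, and for 4 and 3 members on skn-1 RNAi, beside 42.2% and 38.4%.

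**Figure D2:**
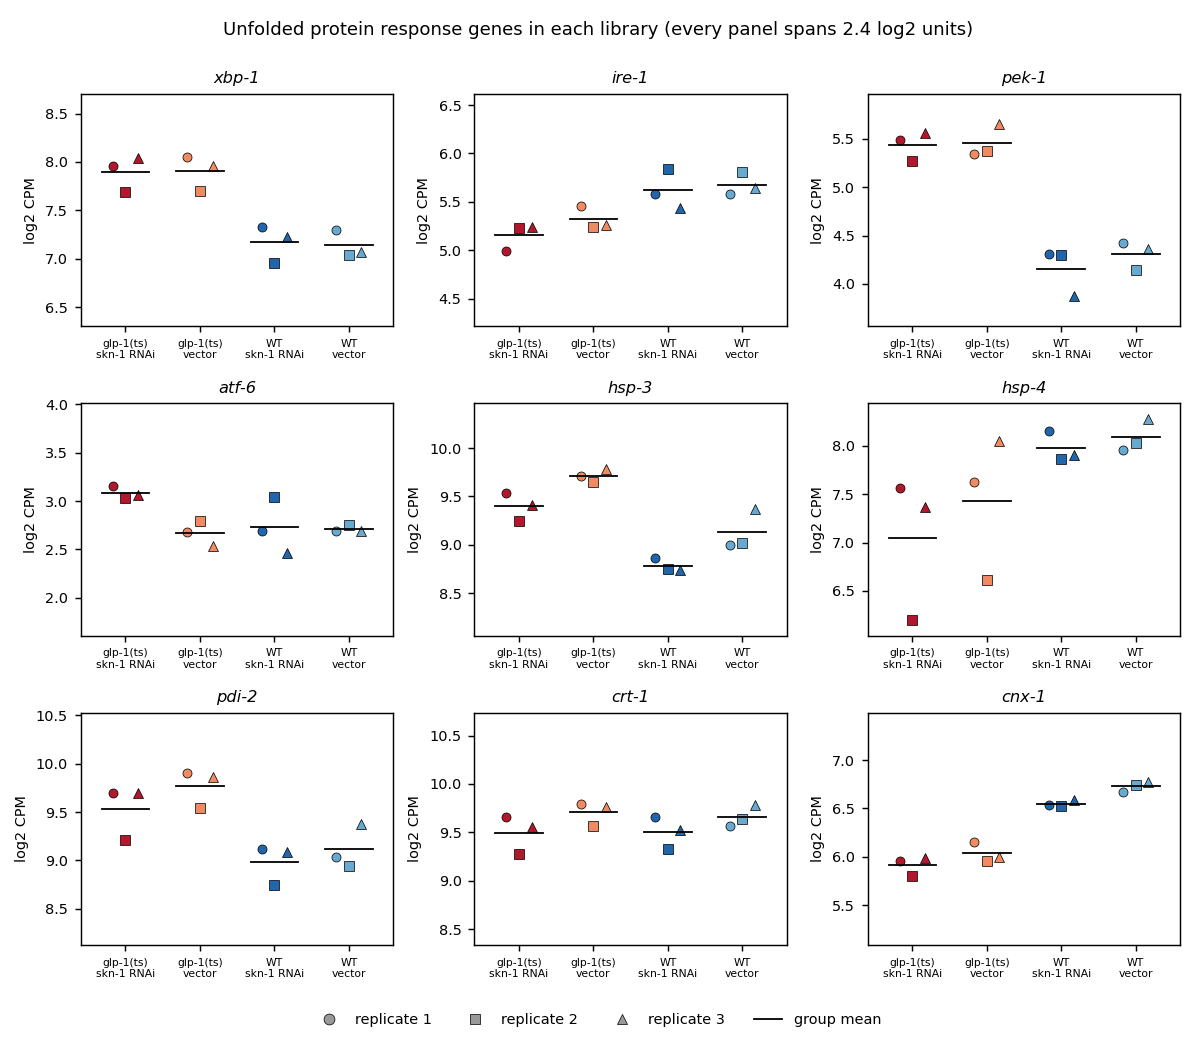
Level of each UPR gene in log2 CPM in every library, with groups as labelled on the horizontal axis, 1 symbol per replicate number and a line at the group mean. Both glp-1(ts) groups lie above both WT groups for xbp-1 and pek-1, and below them for cnx-1, while hsp-4 spreads widely in glp-1(ts) with replicate 2 lowest.

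The mRNA substrate of IRE-1, xbp-1 (WBGene00006959, WBcel235 chromosome III, 4193809 to 4195358, plus strand), had 8.05, 7.70 and 7.96 log2 CPM in glp-1(ts) vector libraries, against 7.30, 7.04 and 7.07 log2 CPM in WT vector libraries. The skn-1 RNAi libraries differed in the same direction, with 7.96, 7.69 and 8.04 log2 CPM in glp-1(ts) and 7.33, 6.95 and 7.22 log2 CPM in WT. Every glp-1(ts) library was above every WT library. In limma the log2 fold change was 0.77 ± 0.14 (SE) on vector and 0.73 ± 0.14 on skn-1 RNAi, with adjusted p-values of 2.08e-04 and 2.99e-04. This exceeded the fold change of 59.7% of genes on vector.

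The IRE-1 sensor gene itself moved the other way. The gene ire-1 (WBGene00002147, chromosome II, 8112243 to 8124910, minus strand) had 5.45, 5.24 and 5.26 log2 CPM in glp-1(ts) vector libraries, against 5.58, 5.81 and 5.65 log2 CPM in WT vector libraries. With skn-1 RNAi the values were 4.99, 5.23 and 5.24 log2 CPM in glp-1(ts), against 5.59, 5.84 and 5.43 log2 CPM in WT. The glp-1(ts) libraries were all below the WT libraries in both comparisons, by small margins. The log2 fold change was −0.36 ± 0.14 (SE) on vector with an adjusted p of 0.0281, and −0.47 ± 0.14 on skn-1 RNAi with an adjusted p of 0.00643. The call on vector was lost without glp-1(ts) vector replicate 2 (log2 fold change −0.32, adjusted p = 0.0826), without glp-1(ts) vector replicate 3 (−0.33, 0.067) and without WT vector replicate 2 (−0.29, 0.105), and without WT vector replicate 3 it sat at the threshold (−0.37, 0.05). An exon of ire-1 overlaps unc-105 on the opposite strand, and the strand setting of the read counting is not given in the sources used here. The level of unc-105 was 1.95 ± 0.42 log2 CPM in glp-1(ts) vector libraries and 0.70 ± 0.15 log2 CPM in WT vector libraries (SD, n = 3 each), opposite in direction to ire-1.

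Of all 9 genes, pek-1 had the largest strain difference. This gene (WBGene00003970, chromosome X, 11410176 to 11414887, minus strand) had 5.34, 5.38 and 5.65 log2 CPM in glp-1(ts) vector libraries, against 4.42, 4.14 and 4.37 log2 CPM in WT vector libraries. With skn-1 RNAi its level was 5.49, 5.27 and 5.56 log2 CPM in glp-1(ts) and 4.31, 4.30 and 3.87 log2 CPM in WT. The strains were far apart, with the lowest glp-1(ts) library well above the highest WT library. Limma gave pek-1 a log2 fold change of 1.15 ± 0.16 (SE) on vector, a 2.21-fold difference with an adjusted p of 1.59e-05, and 1.28 ± 0.16 on skn-1 RNAi with an adjusted p of 4.58e-06. Of all genes, 68.1% had a lower fold change on vector, so the size was not unusual for this comparison.

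The third sensor, atf-6 (WBGene00000222, chromosome X, 12480948 to 12484904, plus strand), was the lowest of the genes, with 2.68, 2.80 and 2.54 log2 CPM in glp-1(ts) vector libraries, against 2.69, 2.75 and 2.69 log2 CPM in WT vector libraries. These ranges overlapped, and the log2 fold change was −0.04 with a 95% interval of −0.44 to 0.35 and an adjusted p of 0.839. On skn-1 RNAi it had 3.15, 3.03 and 3.06 log2 CPM in glp-1(ts), against 2.69, 3.04 and 2.47 log2 CPM in WT. WT skn-1 RNAi replicate 2 lay within the glp-1(ts) range, and the log2 fold change of 0.35 (95% interval −0.05 to 0.75) did not pass the test (adjusted p = 0.0937). It passed without WT skn-1 RNAi replicate 2 (0.51, adjusted p = 0.0302).

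Of the BiP genes, hsp-3 was higher in glp-1(ts) in both comparisons and hsp-4 was not. The more abundant of them, hsp-3 (WBGene00002007, chromosome X, 6089028 to 6092124, minus strand), had 9.71, 9.65 and 9.78 log2 CPM in glp-1(ts) vector libraries, against 9.00, 9.02 and 9.37 log2 CPM in WT vector libraries. On skn-1 RNAi it had 9.54, 9.24 and 9.41 log2 CPM in glp-1(ts), against 8.86, 8.75 and 8.74 log2 CPM in WT. Every glp-1(ts) library was above every WT library of its comparison. Its log2 fold change was 0.59 ± 0.12 (SE) on vector and 0.61 ± 0.12 on skn-1 RNAi, with adjusted p-values of 5.38e-04 and 3.45e-04.

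The UPR reporter gene hsp-4 (WBGene00002008, chromosome II, 7350112 to 7352645, minus strand) was not higher in glp-1(ts). It had 7.62, 6.61 and 8.05 log2 CPM in glp-1(ts) vector libraries, against 7.95, 8.03 and 8.28 log2 CPM in WT vector libraries. Under skn-1 RNAi its level was 7.56, 6.20 and 7.37 log2 CPM in glp-1(ts), against 8.15, 7.87 and 7.91 log2 CPM in WT. Replicate 2 was the lowest library of both glp-1(ts) groups, whose SD of 0.74 log2 CPM each compares with 0.15 log2 CPM in WT skn-1 RNAi and 0.17 log2 CPM in WT vector libraries. On vector the groups overlapped through glp-1(ts) replicate 3, and the log2 fold change of −0.66 ± 0.35 (SE) was not called (adjusted p = 0.0958). On skn-1 RNAi all glp-1(ts) libraries were below all WT libraries, and the log2 fold change of −0.93 ± 0.35 was called (adjusted p = 0.0238). With the replicate number as a block the vector difference was called (adjusted p = 0.0262), and without a variance trend the skn-1 RNAi call was lost (adjusted p = 0.0514). Single libraries also changed both calls. On skn-1 RNAi the call was lost without glp-1(ts) replicate 2 (−0.51, adjusted p = 0.142) and without WT replicate 1 (−0.84, 0.0707). On vector a call appeared without glp-1(ts) vector replicate 3 (−0.97, 0.023), and with the pooled spread when glp-1(ts) skn-1 RNAi replicate 2 was left out (−0.66, 0.041), while without glp-1(ts) vector replicate 2 the log2 fold change was −0.25.

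Within a library the balance of the BiP genes does not depend on a scaling factor of that library. The balance can still depend on the quantile normalization, which is not a single factor per library. On the scale of CPM per kilobase, hsp-4 supplied 23.3%, 12.6% and 22.5% of the sum of hsp-3 and hsp-4 in the skn-1 RNAi-labelled glp-1(ts) libraries, against 42.3%, 39.3% and 40.2% in WT skn-1 RNAi libraries. On vector its share was 21.9%, 12.7% and 26.4% in glp-1(ts) libraries, against 36.7%, 37.6% and 36.0% in WT libraries. The share in every glp-1(ts) library was below that in every WT library, and the mean difference was −16.4 percentage points on vector and −21.1 percentage points on skn-1 RNAi. As a difference of log2 CPM, hsp-4 minus hsp-3 was lower in glp-1(ts) by 1.25 log2 units on vector. Without glp-1(ts) vector replicate 2 that difference was 0.87 log2 units. On skn-1 RNAi the same quantity was lower in glp-1(ts) by 1.55 log2 units, and by 1.20 without glp-1(ts) replicate 2. The summed level of both genes overlapped between the strains, with 8.63 ± 0.19 log2 CPM per kilobase in glp-1(ts) vector libraries and 8.37 ± 0.19 in WT vector libraries (SD, n = 3 each). No test was made of the share or of the sum. The BiP genes are close paralogs, and how reads that match both were counted is not given in the sources used here, so their separate values are uncertain to that extent.

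**Figure D3:**
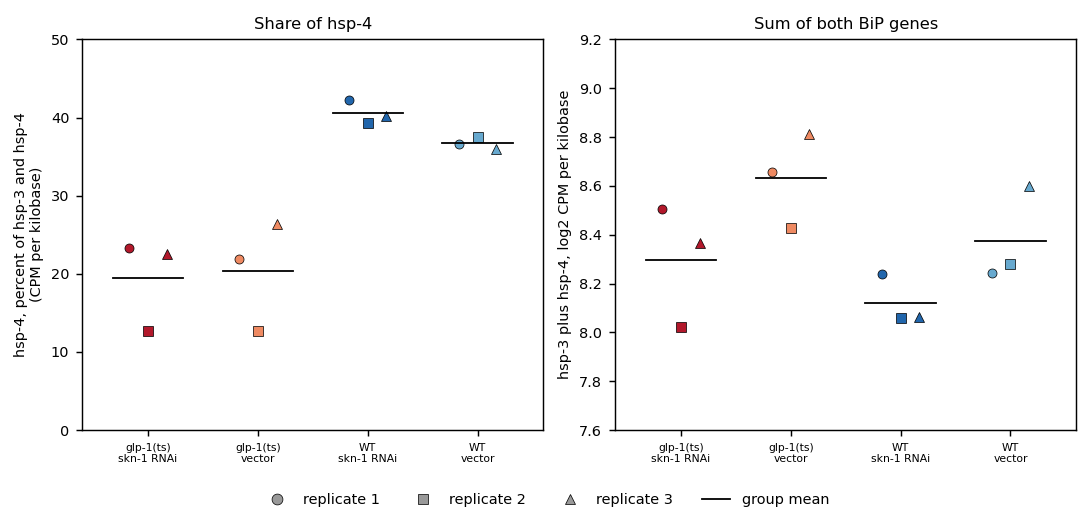
Left, the share of hsp-4 in the sum of hsp-3 and hsp-4 in percent of CPM per kilobase, and right, that sum in log2 CPM per kilobase, for each library, with a line at the group mean and groups as labelled. All 6 glp-1(ts) libraries have hsp-4 shares from 12.6% to 26.4% and all 6 WT libraries from 36.0% to 42.3%, while the sums overlap.

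Among the other ER chaperones, pdi-2 (WBGene00003963, chromosome X, 4524155 to 4526536, plus strand), a disulphide isomerase that is also a subunit of the worm collagen prolyl hydroxylase, was higher in glp-1(ts). It had 9.90, 9.54 and 9.86 log2 CPM in glp-1(ts) vector libraries, against 9.04, 8.94 and 9.38 log2 CPM in WT vector libraries. Under skn-1 RNAi pdi-2 had 9.70, 9.21 and 9.70 log2 CPM in glp-1(ts), against 9.12, 8.75 and 9.09 log2 CPM in WT. The groups did not overlap in either comparison, although glp-1(ts) replicate 2 came close to the highest WT library in both. For pdi-2 the log2 fold change was 0.65 ± 0.17 (SE) on vector and 0.55 ± 0.17 on skn-1 RNAi, with adjusted p-values of 0.00301 and 0.00821.

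The glycoprotein chaperones differed from each other. The lumenal calreticulin gene crt-1 (WBGene00000802, chromosome V, 6098992 to 6100542, minus strand) had 9.80, 9.57 and 9.76 log2 CPM in glp-1(ts) vector libraries, against 9.57, 9.64 and 9.78 log2 CPM in WT vector libraries. For skn-1 RNAi the crt-1 values were 9.66, 9.27 and 9.56 log2 CPM in glp-1(ts), against 9.66, 9.33 and 9.53 log2 CPM in WT. The ranges overlapped widely. The log2 fold change was 0.05 on vector (95% interval −0.23 to 0.32) and −0.01 on skn-1 RNAi (−0.29 to 0.27), and both signs flipped when libraries were centred on reference genes. The 3 reference genes themselves differed between the strains. On vector 1 was called higher and 1 lower (log2 fold changes from −0.35 to 0.64), and on skn-1 RNAi 1 was called lower. The membrane-bound calnexin gene cnx-1 (WBGene00000567, chromosome III, 9814364 to 9817137, minus strand) had 6.15, 5.96 and 6.0 log2 CPM in glp-1(ts) vector libraries, against 6.67, 6.74 and 6.77 log2 CPM in WT vector libraries. On skn-1 RNAi it had 5.96, 5.80 and 5.98 log2 CPM in glp-1(ts), against 6.54, 6.52 and 6.59 log2 CPM in WT. All glp-1(ts) libraries were below all WT libraries. The log2 fold change was −0.69 ± 0.10 (SE) on vector and −0.64 ± 0.10 on skn-1 RNAi, with adjusted p-values of 3.66e-05 and 7.12e-05.

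Exons of crt-1 and cnx-1 also overlap genes on the opposite strand. The crt-1 neighbour smut-1 averaged 3.13 ± 0.13 log2 CPM in glp-1(ts) vector libraries and 4.43 ± 0.11 log2 CPM in WT vector libraries. The cnx-1 neighbour ZK632.14 averaged 0.85 ± 0.36 log2 CPM in glp-1(ts) vector libraries and 3.16 ± 0.18 log2 CPM in WT vector libraries (SD, n = 3 each). Both neighbours were below their partner by more than 3 log2 units in each group, and shared reads between them and the UPR genes were not tested.

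**Figure D4:**
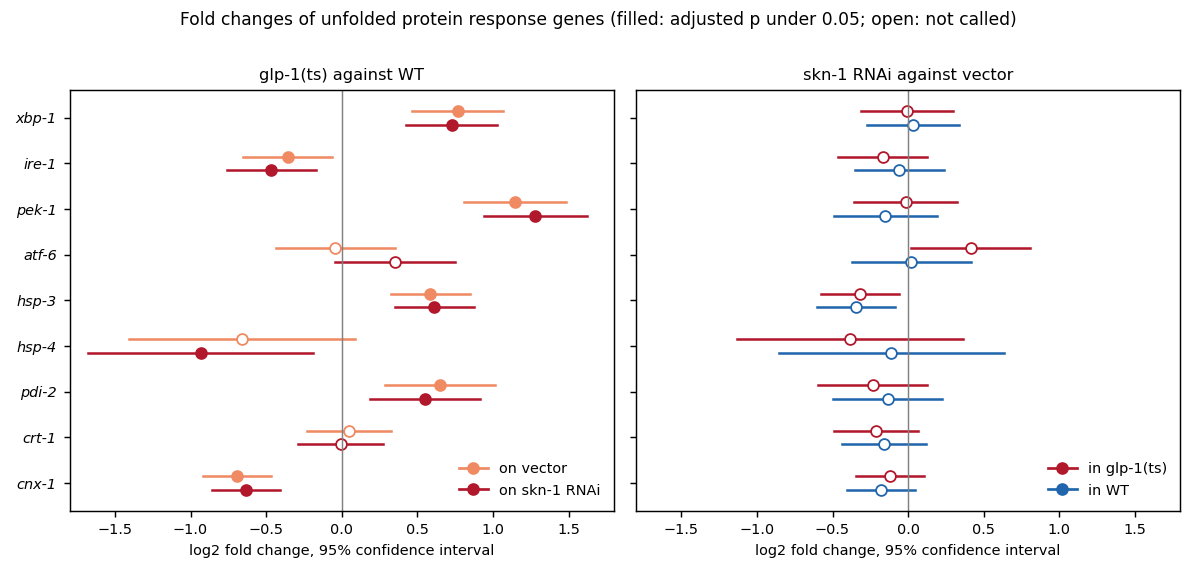
Log2 fold changes of the 9 UPR genes with 95% confidence intervals from limma, left for glp-1(ts) against WT on vector and on skn-1 RNAi, right for skn-1 RNAi against vector in glp-1(ts) and in WT; filled points had an adjusted p under 0.05. The left panel has 4 genes above 0 and 2 below 0 called on vector, and the right panel has none called.

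Other genes of the ER folding pathway were taken as lists by function. Of 15 further ER folding enzymes and chaperones, 7 were higher and 1 was lower in glp-1(ts) on vector (median log2 fold change 0.31), beside 39.4% and 38% of all genes and their median of 0.27. The median and the higher count were near those of the table, while the share called lower was below it. The counts on skn-1 RNAi were the same. The largest increase was in dnj-7, the worm relative of the mammalian BiP cochaperone P58IPK. It had 6.17, 5.94 and 6.18 log2 CPM in glp-1(ts) vector libraries, against 4.75, 4.61 and 5.00 log2 CPM in WT vector libraries, a log2 fold change of 1.32 ± 0.17 (SE). The genes C14B9.2 and T14G8.3 of this list followed, with log2 fold changes of 1.11 and 1.09 on vector and 1.57 and 1.06 on skn-1 RNAi. The disulphide isomerase gene pdi-1 was lower, with log2 fold changes of −0.35 on vector and −0.39 on skn-1 RNAi, and its call on vector was lost without WT vector replicate 3 (−0.29, adjusted p = 0.0593).

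ER-associated degradation carries misfolded proteins back to the cytosol. Of 17 genes of this process, 3 were higher and 8 lower in glp-1(ts) on vector and likewise on skn-1 RNAi, with median log2 fold changes of −0.31 and −0.34, beside 39.4% of all genes higher and 38% lower on vector. The AAA ATPase genes cdc-48.1 and cdc-48.2, whose products pull proteins out of the ER membrane, had log2 fold changes of −1.77 and −1.18 on vector and −2.03 and −1.60 on skn-1 RNAi. Their cofactor gene npl-4.1 had −1.13 on vector and −2.14 on skn-1 RNAi. The npl-4.1 call on vector was lost without glp-1(ts) vector replicate 2 (−0.85, adjusted p = 0.092) and without WT vector replicate 3 (−1.01, 0.0686), and on the log2(CPM + 1) scale its value on skn-1 RNAi was −1.51. On the higher side were ZC506.1 with log2 fold changes of 1.39 on vector and 1.55 on skn-1 RNAi, C47E12.3 with 0.47 and 0.63, and the peptide N-glycanase gene png-1 with 0.30 and 0.30. The png-1 call was lost on vector without glp-1(ts) vector replicate 1, WT vector replicate 1 or WT vector replicate 3 (log2 fold changes 0.23, 0.27 and 0.30), and on skn-1 RNAi without glp-1(ts) replicate 1 or 3 or WT replicate 1 or 2 (0.31, 0.24, 0.31 and 0.28). It was also lost when only the groups compared were fitted (adjusted p = 0.0578 on vector and 0.0738 on skn-1 RNAi), and on vector with centring on reference genes (0.0968).

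Genes for the entry of proteins into the ER were divided. Of 17 genes of translocation, signal peptidase and N-glycosylation, 4 were higher and 4 lower on vector, beside 39.4% and 38% of all genes. On skn-1 RNAi 2 were higher and 4 lower, beside 41.7% and 38.1% of all genes. The share of this list that was called was below that of the table in both comparisons. Without glp-1(ts) vector replicate 3 or without WT vector replicate 2 the higher count on vector was 2, and without glp-1(ts) skn-1 RNAi replicate 2 that on skn-1 RNAi was 4. The translocon-associated gene trap-2 had log2 fold changes of 1.21 on vector and 1.15 on skn-1 RNAi, and K12H4.4, the signal peptidase gene spcs-3, had 0.71 and 0.55. The gene trap-3 was higher on vector alone (0.41), where the call was lost without glp-1(ts) vector replicate 3 (0.34, adjusted p = 0.0725) and without WT vector replicate 2 (0.38, 0.0596). The test of a change between the vector and skn-1 RNAi comparisons called no gene of the table. The oligosaccharyltransferase genes ribo-1 and stt-3 were lower, with log2 fold changes of −0.62 and −0.38 on vector and −0.59 and −0.47 on skn-1 RNAi.

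PEK-1 shares its substrate eIF2alpha with GCN-2. Of 9 other genes around eIF2alpha, all 9 were called in both comparisons, where 77.4% and 79.8% of all genes were, with 1 higher and 8 lower, at medians of −1.04 log2 units on vector and −1.12 on skn-1 RNAi. The higher gene was atf-5, currently named atf-4, the worm relative of mammalian ATF4, whose log2 fold change was 1.98 ± 0.11 (SE) on vector and 2.27 ± 0.11 on skn-1 RNAi, the largest in both comparisons of any gene on the folding, degradation, entry and eIF2alpha lists. Among the lower genes, the other eIF2alpha kinase gene gcn-2 had log2 fold changes of −1.12 and −1.49 and its partner gene gcn-1 had −1.18 and −1.26. Genes of the eIF2B exchange factor were also lower, D2085.3 (eif-2Bepsilon) with −1.11 on vector and ppp-1 (eif-2Bgamma) with −1.59 on skn-1 RNAi.

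HSP70 genes of other compartments set the BiP genes in context. The cytosolic hsp-1 had 9.13, 8.68 and 9.54 log2 CPM in glp-1(ts) vector libraries, against 11.39, 11.35 and 11.23 log2 CPM in WT vector libraries, a log2 fold change of −2.21 ± 0.20 (SE). The mitochondrial hsp-6 had 7.30, 7.40 and 7.61 log2 CPM in glp-1(ts) vector libraries, against 8.50, 8.62 and 8.39 log2 CPM in WT vector libraries, and hsp-110 was lower by a log2 fold change of −1.25. Of the 6 genes of this list, 3 were lower and 1 was higher on vector, beside 38% and 39.4% of all genes. The higher gene was the heat-inducible hsp-70, with 5.47, 3.09 and 5.83 log2 CPM in glp-1(ts) vector libraries, against 2.67, 2.53 and 3.11 log2 CPM in WT vector libraries. Its log2 fold change was 2.03 ± 0.59 (SE, adjusted p = 0.00664), and 2.34 on skn-1 RNAi. On vector glp-1(ts) replicate 2 overlapped the WT range, and without it the log2 fold change on vector was 2.88. With each library left out in turn, the hsp-70 value on vector ran from 1.51 to 2.88. Like hsp-4, hsp-70 was lowest in replicate 2 of both glp-1(ts) groups, with 3.79 log2 CPM on skn-1 RNAi beside 5.46 and 5.50 log2 CPM in replicates 1 and 3. Of 15 abu genes, which respond to a blocked UPR in worms, 4 were in the table. None was called by limma in either strain comparison or had an unadjusted p under 0.05. Their median log2 fold changes were 0.76 on vector and 0.78 on skn-1 RNAi, where 1 of the 4 was below 0. Levels were low and spread widely: abu-11, abu-12 and abu-13 averaged −0.48 ± 0.94, 0.11 ± 1.82 and 0.52 ± 1.17 log2 CPM in glp-1(ts) vector libraries (SD, n = 3). In WT vector libraries they averaged −1.92 ± 1.15, −0.91 ± 0.74 and 0.31 ± 0.58 log2 CPM. Leaving out single libraries let 1 or 2 of them pass.

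**Figure D5:**
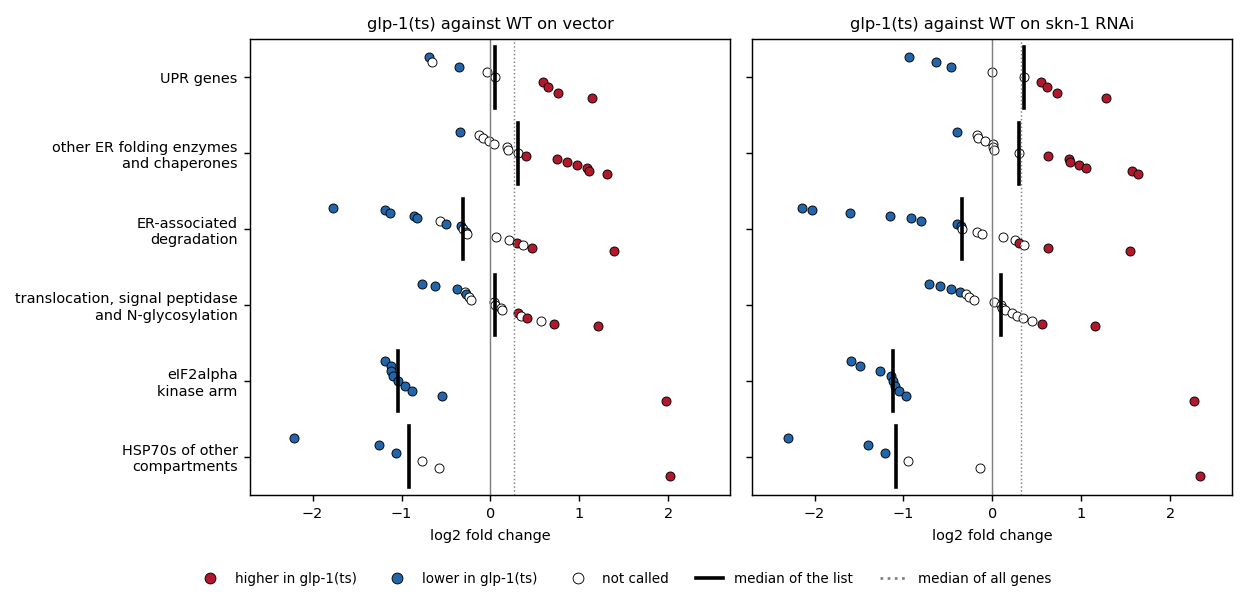
Log2 fold change of each gene of 6 lists in glp-1(ts) against WT, on vector at left and on skn-1 RNAi at right, with called genes coloured by direction, a bar at the median of each list and a dotted line at the median of all genes. The eIF2alpha arm has 8 genes below 0 and atf-5 near 2, the ER-associated degradation genes lean below 0 and the other folding enzymes lean above 0.

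The comparison of skn-1 RNAi with vector was made to find genes that depend on skn-1. In glp-1(ts), where the skn-1 mRNA level was not lower, it compares libraries by their label, and whether the RNAi acted there was not tested. None of the 9 UPR genes was called by limma in the skn-1 RNAi-labelled glp-1(ts) libraries, where 0.357% of all genes were called, or in WT, where 0.175% were. At an unadjusted p under 0.05 there were 2 members in glp-1(ts) (10.5% of all genes) and 1 in WT (5.95%). With replicates of equal number paired within a strain, 38 genes were called higher and 160 lower in glp-1(ts), and 33 higher and 60 lower in WT, and none of them was a UPR gene. The 95% intervals bounded several members at modest changes. In glp-1(ts), xbp-1 had a log2 fold change of −0.01 (−0.31 to 0.30) and pek-1 −0.02 (−0.36 to 0.32), and in WT they had 0.03 (−0.27 to 0.33) and −0.15 (−0.49 to 0.19).

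The BiP gene hsp-3 came nearest to a change. Its levels, given above, were lower in all 3 libraries labelled skn-1 RNAi than in all 3 vector libraries in glp-1(ts), where skn-1 itself was not lower, and likewise in WT, a pattern that 6.34% of genes had in glp-1(ts) and 5.42% in WT. The fold change on the log2 scale was −0.32 in glp-1(ts) (95% interval −0.58 to −0.06) and −0.34 in WT (−0.60 to −0.08). Limma's adjusted p was 0.363 and 0.56 in these strains, and 0.144 and 0.177 with pairing by replicate. The difference between the strains was 0.03 (−0.34 to 0.39).

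Other members separated the groups in 1 strain only. In glp-1(ts), atf-6 was higher in all 3 libraries labelled skn-1 RNAi than in all 3 vector libraries, with a log2 fold change of 0.41 (95% interval 0.02 to 0.81, adjusted p = 0.463 in limma), which 8.29% of genes did in this direction. There ire-1 was lower in all 3 libraries, with a log2 fold change of −0.17 (−0.46 to 0.13). In WT no member was higher in all 3 skn-1 RNAi libraries (5.36% of genes were), and cnx-1 was lower in all 3, with a log2 fold change of −0.18 (−0.40 to 0.05). For hsp-4 the log2 fold change was −0.38 in glp-1(ts) (−1.13 to 0.36) and −0.11 in WT (−0.86 to 0.63), intervals too wide to set a narrow bound. For pdi-2 and crt-1 the log2 fold changes were −0.23 and −0.21 in glp-1(ts) and −0.14 and −0.16 in WT, all with overlapping groups. In all, 8 of 9 members had a fold change below 0 in glp-1(ts) and 7 of 9 in WT, with median log2 fold changes of −0.17 and −0.14. Of all 12595 genes, 6161 had a fold change below 0 in glp-1(ts) and 6112 in WT, and the median over all genes was 0.01 in both strains. Several members varied together across libraries, as given below, so their signs are not separate observations.

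The difference of the skn-1 RNAi effects between strains was called for no member and for no gene in the table (0%), while 5.92% of genes but no member had an unadjusted p under 0.05 in limma. The largest member value was 0.39 for atf-6 (95% interval −0.17 to 0.95) and the lowest was −0.27 for hsp-4 (−1.33 to 0.78). None of the genes on the ER folding, degradation, entry, eIF2alpha, abu and HSP70 lists was called by limma for skn-1 RNAi in either strain without pairing. At an unadjusted p under 0.05 there were 4 of 17 degradation genes in glp-1(ts), beside 10.5% of all genes. In WT there were 2 of 15 folding, 2 of 17 degradation and 1 of 9 eIF2alpha genes, beside 5.95% of all genes. When WT skn-1 RNAi replicate 3 was left out, 1 degradation gene was called lower in glp-1(ts), beside 38 of all 12595 genes. With pairing within a strain, 2 of 17 degradation genes were called lower in glp-1(ts) with skn-1 RNAi, beside 160 of all 12595 genes. There the germline genes also had a median log2 fold change of −0.38. The part of germline content in this was not tested.

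Replicates of a group differed in a common way for the folding genes, and in part for xbp-1. After the mean of each group was removed, pdi-2 and crt-1 had a Pearson r of 0.93 over the 12 libraries (Spearman rho 0.93, and r 0.87 without the 2 most extreme libraries of pdi-2). For hsp-3, r was 0.81 with pdi-2 and 0.78 with crt-1 (rho 0.83 and 0.86), and for hsp-4 it was 0.81 and 0.82 (rho 0.77 and 0.80, and r 0.63 and 0.68 without the 2 most extreme libraries of hsp-4). For cnx-1, r was 0.76 with pdi-2 and 0.73 with crt-1 (rho 0.79 and 0.72). The transcription factor gene xbp-1 had r of 0.725 and 0.70 with them (rho 0.585 and 0.615, and r 0.519 and 0.448 without the 2 most extreme libraries of xbp-1). The sensor genes ire-1 and atf-6 did not share this. The r of ire-1 was −0.39 with pdi-2 and −0.35 with crt-1 (rho −0.21 and −0.20), and that of atf-6 was −0.44 and −0.36 (rho −0.17 and −0.11). For pek-1 it was 0.29 and 0.25 (rho 0.24 and 0.27). With hsp-3 and hsp-4, r was 0.459 and 0.524 for pek-1 and 0.265 and 0.671 for xbp-1. Without the 2 most extreme libraries these were 0.339 and 0.455 for pek-1 and 0.032 and 0.584 for xbp-1. Between hsp-4 and cnx-1, r was 0.658, and 0.215 without the 2 most extreme libraries of hsp-4. These values describe 12 libraries of 4 groups, in which all genes share library depth and sample handling. The genes most like hsp-4 by this measure were fbxa-197 (r = 0.98), lars-2 (0.97), dnj-13 (0.96), ZK1058.5 (0.96) and him-8 (0.96), of which only dnj-13, a DnaJ cochaperone gene, was abundant, with a mean of 6.65 log2 CPM. Without the 2 most extreme libraries of hsp-4 these r were 0.907, 0.925, 0.911, 0.888 and 0.864. In the hsp-4 order crt-1 stood at place 205, pdi-2 at 259, hsp-3 at 765, xbp-1 at 814 and cnx-1 at 886. The genes most like xbp-1 were F26A3.4 (0.94), ZC266.1 (0.93), ZC116.1 (0.92), Y54G2A.45 (0.91) and F45D3.3 (0.90), and hsp-4 stood at place 596 of that order with r = 0.67. Without the 2 most extreme libraries of xbp-1 the r of these 5 genes were 0.941, 0.917, 0.898, 0.848 and 0.843.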

How the data were processed

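RNA-seq libraries of whole worms were analysed as 4 groups of 3, with groups and replicate numbers from the sample labels. The authors aligned poly(A) single-end reads of 50 bp to WBcel235 with STAR, counted them with featureCounts of Subread, kept genes with at least 1 CPM in at least 2 samples, and ran voom after quantile normalization. The deposited unit is log2 CPM as the authors computed it. Depth per library is not given, so no counting error could be stated. A deposited results table of the authors holds their own log2 fold changes, t statistics, p-values and FDR and was not used. Group means were fitted to the log2 CPM by limma (version 3.58.1, R 4.3.3) on the 12 libraries together (empirical Bayes with a trend, no weights, no replicate block, 8 residual degrees of freedom), with Benjamini-Hochberg adjustment over 12595 genes. The fit was tested on simulated data.

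The members, lists and rules were chosen with earlier results of these data known. Named genes are the 9 members, up to 3 called genes per list and direction with the largest change, hsp-1, hsp-6, skn-1, and the 5 genes with the highest r with hsp-4 and with xbp-1. Levels per kilobase used the union of exons in Ensembl release 115 (WBcel235). Promoter motifs were not searched and sequences were not used here. Counts of lists carry no set test. A gene that this rule picks is not reported here.

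Vector and skn-1 RNAi libraries of equal replicate number deviated together within a strain (r of 0.11, 0.31 and 0.25 in WT and 0.15, 0.34 and 0.23 in glp-1(ts), across genes) and were read as pairs there. Across strains the values (0.03, 0.16 and 0.12 on vector) did not all exceed 0.1. A block within strain was added after seeing the data. Other alternatives were vooma weights, no trend, keeping genes with means from 1 or from 4 CPM, only the groups compared, a replicate block, centring on the median or on 3 reference genes, log2(CPM + 1) and leaving out each library.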

Additional observations from a re-analysis of the deposited data

How the results depend on the processing

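Limits. Depth is unknown, 3 libraries per group leave wide intervals for hsp-4, and the tissues of the strains differ. The 4 members called higher in glp-1(ts) kept their calls under every alternative and with each library left out, as did cnx-1 on the lower side. Leaving out 1 library at a time gave 1 to 3 members lower on vector (1 without glp-1(ts) vector replicate 2 and 1 without WT vector replicate 2). With the replicate number as a block, hsp-4 was called lower on vector (log2 fold change −0.66, adjusted p = 0.0262), and without a trend its call on skn-1 RNAi was lost (adjusted p = 0.0514). Pairing changed the call of no other member. With the block 4 genes of ER entry and 1 abu gene were called higher on skn-1 RNAi, and with centring on reference genes 2 genes of ER entry on vector. For skn-1 RNAi over all genes, 7 were called higher and 38 lower in glp-1(ts) with no block, 18 and 81 with the block over both strains, and 38 and 160 with the block within strain. In WT these counts were 10 and 12, 19 and 40, and 33 and 60.

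Only uncalled values reversed. Centring on the reference genes gave crt-1 −0.0095 on vector and 0.017 on skn-1 RNAi for the strains, xbp-1 0.0064 for skn-1 RNAi in glp-1(ts), xbp-1 −0.035 and atf-6 −0.045 for skn-1 RNAi in WT, and xbp-1 0.041 and crt-1 0.026 for the difference of the effects. With each library left out in turn, the strain values were −0.10 to 0.025 for atf-6 and −0.0024 to 0.12 for crt-1 on vector, and −0.097 to 0.10 for crt-1 on skn-1 RNAi. For skn-1 RNAi in glp-1(ts) they were −0.11 to 0.096 for xbp-1, −0.076 to 0.082 for pek-1, −0.79 to 0.040 for hsp-4, −0.36 to 0.070 for hsp-1 and −0.25 to 0.19 for skn-1. In WT they were −0.049 to 0.14 for xbp-1, −0.17 to 0.033 for ire-1, −0.13 to 0.15 for atf-6, −0.12 to 0.046 for hsp-1 and −0.25 to 0.065 for hsp-6. For the difference of the effects they were −0.15 to 0.065 for xbp-1, −0.20 to 0.00054 for ire-1, −0.0078 to 0.23 for pek-1, −0.094 to 0.10 for hsp-3, −0.68 to 0.15 for hsp-4, −0.23 to 0.066 for pdi-2, −0.14 to 0.058 for crt-1 and −0.30 to 0.13 for hsp-1. The causes were not tested.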
